A study of Rattus norvegicus with 36 samples.

Results

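The genes of iodide transport and of the ion channels of the thyroid follicular cell studied here, Slc5a5, Slc26a4, Ano1, Kcnq1 and Kcne2, were followed in the thyroid of 36 male Sprague Dawley rats 24 h after an intravenous injection of 131I. The injected activity was 9 or 88 kBq at the low end, 170, 260 and 340 kBq in the middle, and 760, 1300 and 4700 kBq at the high end, with 4 rats per activity, and 4 control rats (0 kBq) were mock-treated with saline. All rats were healthy adults on standard chow, and RNA of each rat's thyroid tissue was hybridized to 1 array. The genes were chosen by name. Every array probe assigned to 1 of the 5 gene symbols was taken, which gave 8 of the 30367 probes on the array: 2 each for Slc5a5, Ano1 and Kcnq1, and 1 each for Slc26a4 and Kcne2. Where a gene had 2 probes, the main probe was the one that the study also used (Slc5a5) or the one with the higher mean level (Ano1 and Kcnq1). The probe of Iyd, a gene of the follicular cell, served as the reference against which the 5 genes were compared. The rats had been injected in the order of the activities with the controls last, so that activity and order of injection cannot be told apart.

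The follicular cell takes up iodide at the side facing the blood through Slc5a5, the sodium/iodide symporter NIS, which is driven by the sodium gradient. Potassium channels built from the pore subunit Kcnq1 and the accessory subunit Kcne2 lie in the same membrane, and loss of Kcne2 is known to impair iodide uptake. On the side facing the follicle lumen, Slc26a4 (pendrin, an anion exchanger) and Ano1 (a calcium-activated chloride channel) let iodide pass into the lumen, where it is bound to thyroglobulin (Tg). Iyd encodes the iodotyrosine deiodinase, which recovers iodide from iodotyrosines for a new round of use.

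The sequences around the start sites of Slc5a5, Ano1 and Iyd are shown because these genes moved together over the rats, as described below. Each run holds 250 bases before and 50 bases after the start, 5′ to 3′ on the strand of the gene, from RefSeq on the build GRCr8. Capitals mark the core TCAAG of sites bound by the thyroid transcription factor NKX2-1, on either strand.
Slc5a5, chr16:18580455-18580754, plus strand: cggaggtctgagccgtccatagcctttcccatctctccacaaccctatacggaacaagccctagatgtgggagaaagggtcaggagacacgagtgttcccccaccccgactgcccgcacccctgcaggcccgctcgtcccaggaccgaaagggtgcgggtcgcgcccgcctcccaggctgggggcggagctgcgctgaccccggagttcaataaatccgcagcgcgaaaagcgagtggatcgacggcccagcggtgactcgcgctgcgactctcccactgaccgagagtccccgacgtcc
Ano1, chr1:209329289-209329588, minus strand: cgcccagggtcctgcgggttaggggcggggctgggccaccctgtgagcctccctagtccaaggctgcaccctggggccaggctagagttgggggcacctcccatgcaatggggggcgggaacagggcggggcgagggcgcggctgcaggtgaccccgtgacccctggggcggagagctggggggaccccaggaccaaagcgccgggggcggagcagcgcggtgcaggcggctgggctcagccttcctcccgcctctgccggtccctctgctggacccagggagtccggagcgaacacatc
Iyd, chr1:42409888-42410187, plus strand: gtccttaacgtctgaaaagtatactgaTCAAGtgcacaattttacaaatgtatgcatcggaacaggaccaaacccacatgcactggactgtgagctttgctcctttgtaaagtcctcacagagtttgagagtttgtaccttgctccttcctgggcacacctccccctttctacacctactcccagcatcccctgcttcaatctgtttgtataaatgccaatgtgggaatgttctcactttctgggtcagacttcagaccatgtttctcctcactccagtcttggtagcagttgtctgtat
The letters TCAAG were present once in the window of Iyd and 0 times in those of Slc5a5 and Ano1, and 41.0% of the 33469 promoters of this length held them. The letters TGACG, the core of cAMP response elements, were in none of the 3 windows, against 21.2% of all promoters. The GC content was 66.0% for Slc5a5, 73.7% for Ano1 and 45.7% for Iyd.

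Levels are given as the log2 intensity of a probe after subtraction of the 75th percentile of the array, so that 0 marks the intensity at that percentile. Levels of different probes are not set against each other, since probes differ in brightness. Of the 8 probes, 7 gave signal: the main probe of Slc5a5 was well above the local background on 26 of 36 arrays, the second probe of Ano1 on 32, and the other 5 probes on all 36. The Slc26a4 probe was not well above background on any of the 36 arrays (levels between -9.17 and -7.12), which leaves an upper bound on its level only, and neither a fold change nor a relation to Iyd is given for it. Whether pendrin followed Iyd can thus not be read from this probe. Per array, 60.0 to 88.4% of the probes (median 69.95%) were well above background.

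The arrays fell into 2 sets of 18 by their Iyd level, and each set held arrays of every group. In the upper set Iyd lay between -0.26 and 1.45, and in the lower set between -8.21 and -3.28, with an empty stretch of 3.03 between them (31.3% of the range). Iyd was well above background on 3 of the 18 lower arrays. By group, the lower set held 1 of 4 arrays at 0 kBq and at 4700 kBq, 2 of 4 at 88, 170, 260, 760 and 1300 kBq, and 3 of 4 at 9 and 340 kBq. Each of the 5 slides held arrays of both sets too. No slide held arrays of both the 88 kBq group and the controls, so slide and activity cannot be told apart in that comparison.

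Marker genes of other tissues were at different levels in the same 2 sets. The levels of 11 follicular cell markers, summed on the linear scale with the 75th percentile set to 1, were 214 to 379 in the upper set (median 283) and 1.61 to 133 in the lower set (median 5.73). The 6 markers of C cells, the calcitonin cells of the gland, summed to 42.3 to 242 in the upper set and to 0.201 to 0.806 in the lower set, with no array between. The 3 parathyroid markers summed to 2.06 to 139 in the upper set and 0.0197 to 4.82 in the lower set. In contrast, squamous epithelium markers had a median of 141 in the lower and 0.288 in the upper set, with ranges that overlapped (0.122 to 343 and 0.0793 to 42.7). Skeletal muscle markers summed to 343 to 1276 in the lower set (median 693) and to 0.542 to 639 in the upper set (median 385). Smooth muscle, airway and adipose markers overlapped between the sets. Smooth muscle markers had a median of 56.6 in the lower and 25.3 in the upper set, and adipose markers 5.21 and 8.88. Airway markers had medians of 0.827 and 0.335, but reached 154.5 in the lower set and 3.91 in the upper set. At 340 kBq they summed to between 29.5 and 95.2 on the lower arrays and to 0.186 for rat 4. At 9 kBq they reached 1.31 at most. On the lower arrays the follicular and C cell markers were thus below their levels on the upper arrays. In tissue samples like these, fewer follicular cells and less RNA per cell cannot be told apart. All 36 samples are labelled as thyroid. Follicular cell markers summed to 79.4 on the lower array of rat 1 at 88 kBq. They summed to 80.3 for rat 3 at 260 kBq and to 133 for rat 1 at 760 kBq. These markers were thus clearly present on those lower arrays, though below the range of the upper set. Whether the samples on the other lower arrays held thyroid gland cannot be told from these data. Every level, group mean and slope over the 36 arrays carries this limit. The part of the tissue makeup in the results below was not tested.

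**Figure D1:**
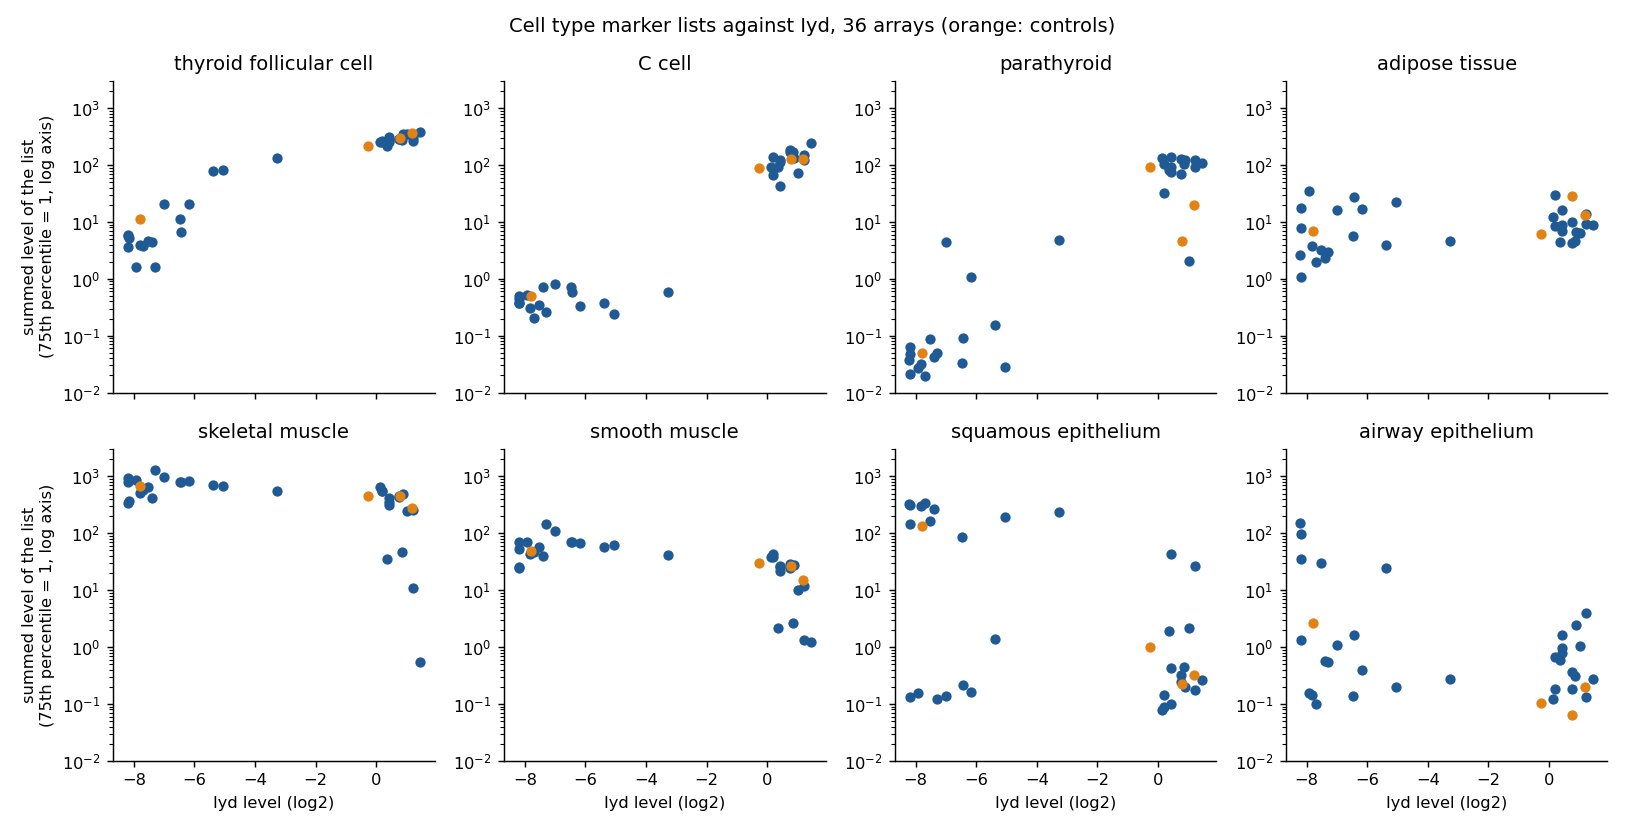
Summed levels of marker genes of 8 tissues or cell types (vertical log axis, 75th percentile of the array = 1) against the Iyd level of the same array (log2), 1 point per array, controls in orange. C cell markers lay between 0.201 and 0.806 on the 18 arrays with low Iyd and between 42.3 and 242 on the other 18.

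For Slc5a5, the levels of single rats spanned 12.1 log2 units. In the 4 control rats the main probe read 2.54, 0.69, -6.93 and 3.54. At 9 kBq it read -8.54, 1.04, -5.98 and -5.63, and at 340 kBq -6.61, -5.42, -5.96 and 2.10. These 2 groups had 3 low rats and 1 high rat each, against 1 low rat among the controls. At 88 kBq the levels were -3.85, -6.70, 3.17 and 2.32, at 170 kBq 0.67, 2.62, -5.71 and -6.14, and at 260 kBq 2.73, 3.33, -5.20 and -5.93. At 760 kBq they were -1.65, -8.25, 2.84 and 2.57, at 1300 kBq -7.72, -6.53, 2.10 and 2.31, and at 4700 kBq 1.22, 3.02, -5.89 and 2.79. Each group held high and low rats, and each of the 8 irradiated groups overlapped the controls. The low rats were the same animals in which Iyd was low.

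Ordered by the mean of the main probe, the groups ran from 4700 kBq (0.28 ± 4.19, SD, n = 4) and the controls (-0.04 ± 4.74) through 760, 88, 260, 170 and 1300 kBq to 340 kBq (-3.97 ± 4.08) and 9 kBq (-4.78 ± 4.09). No neighbours in this order differed by more than their SD. The within-group SD of 4.68 was larger than that of 99.8% of all probes, whose median SD was 0.67. The second Slc5a5 probe spanned a smaller range, -5.05 to -0.28, with a within-group SD of 1.59.

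Ano1 was measured on all arrays by its main probe and varied over 5.21 log2 units. The control rats read 2.86, 1.34, -0.69 and 2.98. At 760 kBq the rats read 1.13, 0.96, 3.37 and 2.84, and at 1300 kBq -1.83, -1.15, 2.29 and 2.30. The lowest of the controls was again the rat with low Iyd, and at 1300 kBq 2 of 4 rats lay below all controls. The other groups read -0.36, 1.89, 1.60 and 1.07 at 9 kBq, -1.44, 1.33, 2.71 and 2.05 at 88 kBq, and 1.17, 2.71, -1.0 and 1.49 at 170 kBq. At 260 kBq the levels were 2.59, 2.57, 0.98 and -0.03, at 340 kBq 0.09, -0.45, 0.41 and 2.23, and at 4700 kBq 1.71, 2.91, -1.27 and 3.04. All groups overlapped the controls. Group means lay between 0.40 ± 2.20 (1300 kBq) and 2.08 ± 1.21 (760 kBq), and the within-group SD was 1.60. The second probe varied in the same way, with group means between -5.16 ± 2.98 (1300 kBq) and -2.68 ± 1.41 (760 kBq).

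The 2 potassium channel subunits varied far less. The main probe of Kcnq1 read -0.70, -1.29, -0.83 and -1.29 in the control rats and between -2.14 and 0.01 over all 36 arrays. Its group means lay between -1.30 ± 0.81 (88 kBq) and -0.66 ± 0.53 (340 kBq), and its within-group SD of 0.64 was larger than that of 46.4% of all probes. The second Kcnq1 probe ranged from -3.98 to -1.50, with group means between -3.40 ± 0.43 (760 kBq) and -2.56 ± 0.98 (1300 kBq). Kcne2 read -1.26, -1.75, -2.32 and -1.95 in the controls and between -3.15 and -1.21 over all arrays. Its group means lay between -2.34 ± 0.73 (9 kBq) and -1.59 ± 0.32 (1300 kBq), with a within-group SD of 0.54. The main probes of Kcnq1 and Kcne2 spanned 2.15 and 1.94 log2 units, against 12.1 for Slc5a5.

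**Figure D2:**
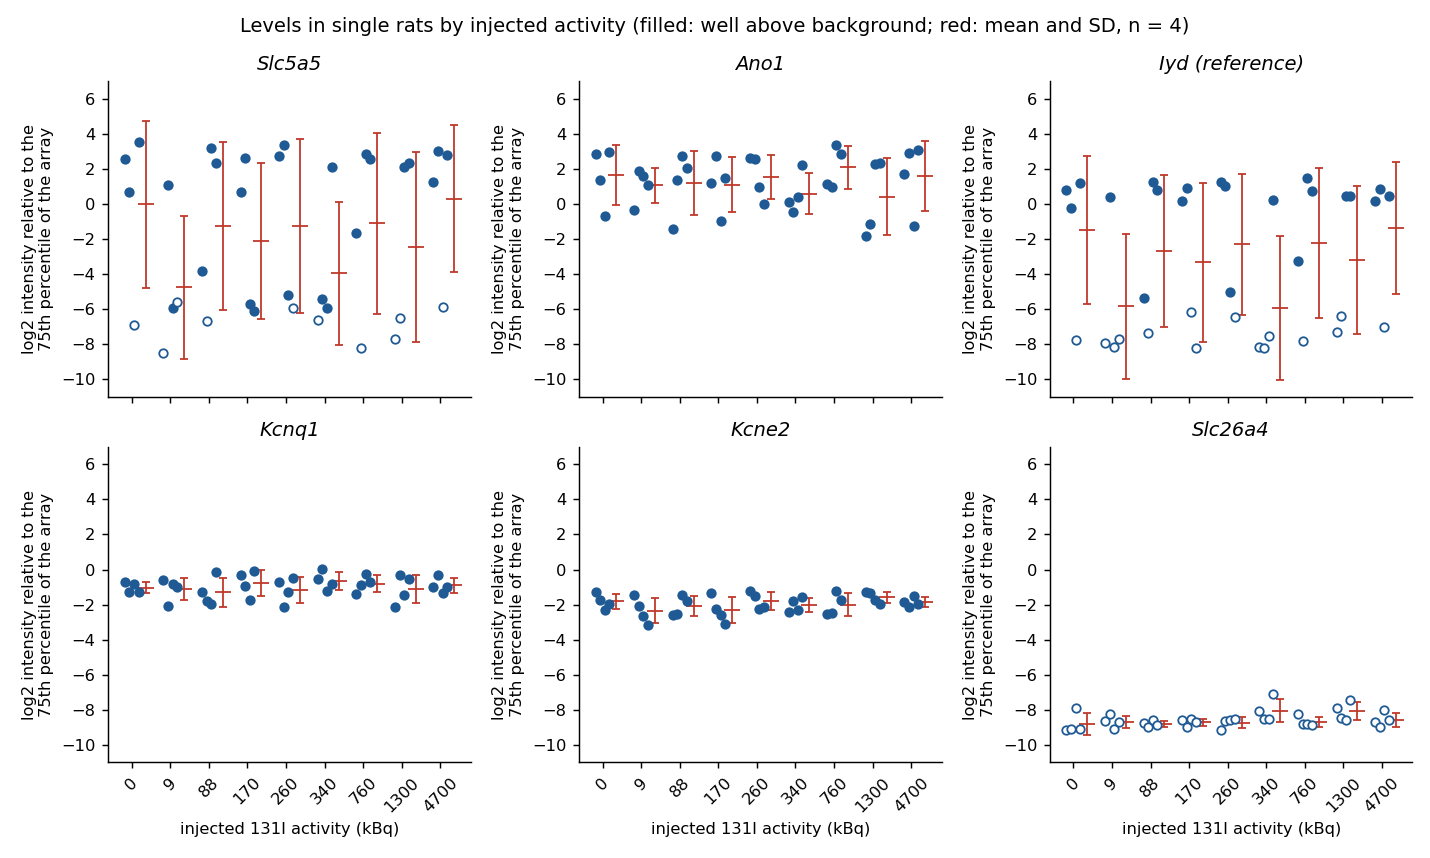
Levels of the main probe of each of the 5 genes and of Iyd (log2 intensity relative to the 75th percentile of the array) by injected 131I activity, 1 point per rat, filled where the probe was well above background, with the mean and SD of the 4 rats in red. Slc5a5 and Iyd show high and low rats in every group, Ano1 spreads less, Kcnq1 and Kcne2 lie in a narrow band, and Slc26a4 has only open points.

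Whether exposure to 131I changed the expression of these genes was asked by comparing each irradiated group with the 4 controls. A probe was called regulated at the limits of the study, that is where the level differed by 1.5-fold or more and the adjusted p-value was below 0.01. At these limits the study, which used other software, reported the main Slc5a5 probe as downregulated at 9 and 340 kBq. It also measured Slc5a5 by quantitative PCR, though not at 340 kBq. There it found strongly lower levels in some but not all rats at 9 kBq, and in a single rat each at 88 and 170 kBq. It described large variation within groups, with differences of group means for thyroid function genes rarely significant. Here, in limma with Benjamini-Hochberg adjustment, 0 of the 7 measured probes were regulated in each of the 8 comparisons. On the whole array it was 0 of 30367 probes (0%). What sets the calls of the study apart from these was not tested. At an unadjusted p-value under 0.05 the number was also 0 of 7 in each comparison. Among all probes the share at that limit was 3.22% at 9 kBq, 3.35% at 88 kBq, 2.39% at 170 kBq and 1.11% at 260 kBq. It was 13.6% at 340 kBq, 1.64% at 760 kBq, 4.22% at 1300 kBq and 1.66% at 4700 kBq. In a moderated F test for any difference between the 9 groups, the adjusted p-value was 0.989 for each of the 7 probes, while 0.0132% of all probes passed an adjusted p-value of 0.01 and 2.67% an unadjusted p-value of 0.05.

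The largest log2 differences from the controls were those of Slc5a5, -4.74 ± 3.18 (SE) at 9 kBq (adjusted p = 0.999, exact permutation p = 0.200, two-sided) and -3.93 ± 3.18 at 340 kBq (adjusted p = 0.568, exact permutation p = 0.343). At 4700 kBq Slc5a5 differed by 0.32 ± 3.18. The second Slc5a5 probe differed by -2.08 ± 1.08 at 9 kBq (unadjusted limma p = 0.0648, exact permutation p = 0.143). Ano1 differed by -1.22 ± 1.09 at 1300 kBq and by 0.46 ± 1.09 at 760 kBq. Kcnq1 stayed within -0.27 and 0.37 (SE 0.44) and Kcne2 within -0.52 and 0.23 (SE 0.38) over the 8 groups, while the second Kcnq1 probe reached 0.81 ± 0.43 at 1300 kBq (unadjusted limma p = 0.0713, exact permutation p = 0.229). With 4 rats against 4, the exact permutation test cannot give a p-value below 0.0286. The median of all probes was itself shifted from the controls by 0.31 at 340 kBq, 0.22 at 1300 kBq and 0.12 at 170 kBq, and by less than 0.1 in the other groups.

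The same comparisons were repeated on the 18 arrays whose C cell markers summed above 1, which were the 18 arrays with high Iyd. These left 3 controls and 1 to 3 rats per irradiated group, and were chosen after the values had been seen. The main Slc5a5 probe read 0.67 to 3.54 on the arrays kept and -8.54 to -1.65 on those left out. Every rat with low Slc5a5 was thus removed, so these fits cannot show a difference that lies in the number of low rats. Where a group held 1 rat (9 and 340 kBq), that rat was taken to vary like the others. The SE of the Slc5a5 differences was 0.72 to 1.02 in place of 3.18, and the differences lay between -1.22 ± 1.02 (9 kBq) and 0.77 ± 0.81 (260 kBq). At 4700 kBq, with 3 rats against 3, Slc5a5 differed by 0.09 ± 0.72, Ano1 by 0.16 ± 0.52, Kcnq1 by 0.35 ± 0.50 and Kcne2 by -0.34 ± 0.27. Ano1 ranged from -0.51 ± 0.73 (9 kBq) to 0.72 ± 0.58 (760 kBq). In the comparisons with more than 1 irradiated rat, 0 of the 7 probes were regulated on these arrays and 0 passed an unadjusted p-value of 0.05. Of all probes, 0% were regulated at 88 and 260 kBq, 0.00329% at 170 kBq, 0.0132% at 1300 kBq, 0.0165% at 760 kBq, 0.0296% at 4700 kBq and 0.0362% at 9 kBq. At 340 kBq 12.3% were regulated, which rests on the single rat 4 of that group, the array with the highest share of probes above background. At an unadjusted p-value under 0.05, the shares of all probes were 15.5% at 9 kBq, 9.69% at 88 kBq, 3.99% at 170 kBq, 4.03% at 260 kBq, 25% at 340 kBq, 6.85% at 760 kBq, 4.46% at 1300 kBq and 7.33% at 4700 kBq.

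Which of the genes followed Iyd from rat to rat was asked next. Each probe was fitted on the group and on the Iyd level of the same array, which gives the log2 change per log2 unit of Iyd between rats of 1 group. A slope was called at an adjusted p-value under 0.01. Over all other probes, 18.4% were called above 0 and 23.4% below 0, with a median slope of -0.02 and 5th and 95th percentiles of -0.21 and 0.20.

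Slc5a5 followed Iyd. Its main probe had a slope of 1.10 (95% interval 1.02 to 1.18, adjusted p = 1.11e-19). The size of this slope rests in part on signal at background, since Iyd was not well above background on 15 of the 36 arrays and the main Slc5a5 probe on 10, and it was 1.83 (1.13 to 2.54) on the 18 upper arrays alone. The main probe read -8.54 to -1.65 on the 18 lower arrays, where 8 arrays were well above background, and 0.67 to 3.54 on the 18 upper arrays. The second Slc5a5 probe had a slope of 0.34 (0.27 to 0.40, adjusted p = 2.77e-09), so over all 36 arrays the 2 probes moved in 1 direction but by different amounts. On the 18 upper arrays alone the slope of the second probe was 1.52 (0.88 to 2.15), and the intervals of the 2 probes overlapped there. Within the 5 slides the slope of the main probe lay between 0.96 and 1.26.

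Ano1 followed Iyd too. Its main probe had a slope of 0.31 (0.22 to 0.40, adjusted p = 5.57e-07) and its second probe 0.37 (0.27 to 0.48, adjusted p = 7.26e-07), higher than the slopes of 97.7% and 98.4% of all probes. On the 18 upper arrays alone the main probe had a slope of 1.30 (0.78 to 1.82). The slope of the second Slc5a5 probe lay between those of the 2 Ano1 probes. The main probe read -1.83 to 1.60 on the lower arrays and 1.17 to 3.37 on the upper arrays, and it was well above background on all 18 lower arrays, against 8 for the main probe of Slc5a5 and 3 for Iyd. Within the slides its slope lay between 0.24 and 0.35.

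Kcne2 and Kcnq1 did not follow Iyd at the limit set. Kcne2 had a slope of 0.067 (0.023 to 0.111), with an adjusted p-value of 0.0104 just over the limit, which it passed under 4 of the alternative settings (adjusted p between 0.00321 and 0.00939), and read -3.15 to -1.30 on the lower and -2.23 to -1.21 on the upper arrays. The main probe of Kcnq1 had a slope of -0.0051 (-0.065 to 0.054, adjusted p = 0.902), and its levels covered nearly the same range in both sets, -2.12 to 0.01 and -2.14 to -0.16. The second Kcnq1 probe had a called slope below 0, -0.090 (-0.137 to -0.044, adjusted p = 0.00131). The 2 Kcnq1 probes thus differed in their call. Of the 7 measured probes, 4 were called above 0 (against 18.4% of all probes), 1 below 0 (against 23.4%) and 2 in neither direction.

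**Figure D3:**
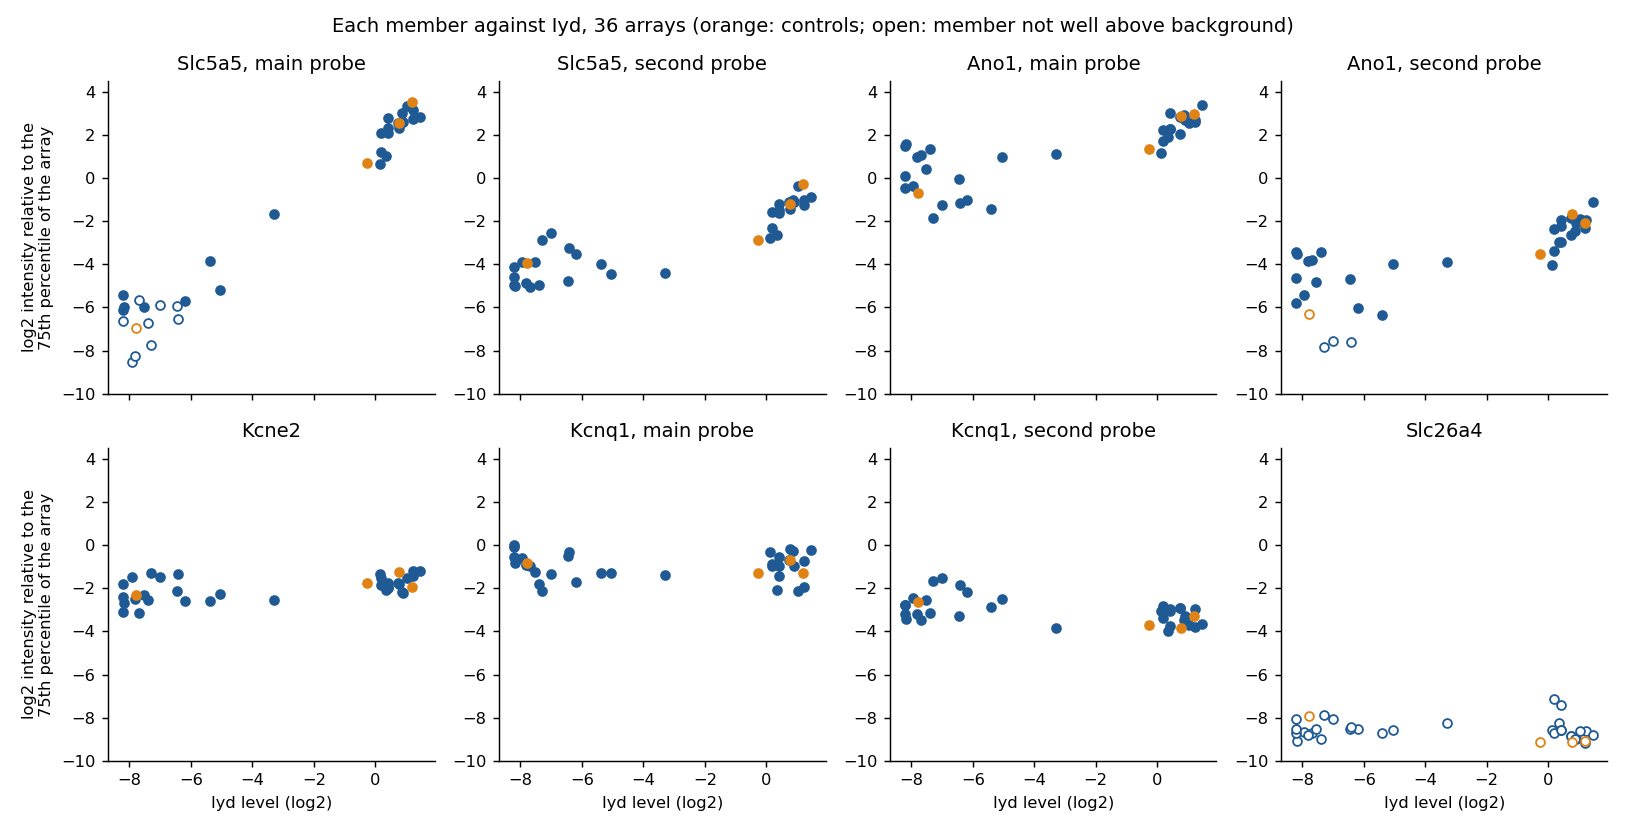
Level of each of the 8 probes (vertical axis, log2 intensity relative to the 75th percentile of the array) against the Iyd level of the same array (horizontal axis, log2), 1 point per array, controls in orange, open where the probe was not well above background. Both probes of Slc5a5 and of Ano1 lie higher on the right, Kcne2 and Kcnq1 run nearly flat, and Slc26a4 has open points only.

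The slopes of the genes were compared within arrays by their main probes, where the scaling cancels, in a permutation test of Iyd within groups with adjustment over 10 pairs. Slc5a5 exceeded Ano1 by 0.79 (0.70 to 0.88, adjusted p = 2.5e-05), Kcne2 by 1.03 (0.93 to 1.14, adjusted p = 2.5e-05) and Kcnq1 by 1.11 (1.01 to 1.20, adjusted p = 2.5e-05). The unadjusted p-value of 1e-05 behind these was the smallest that the 100000 permutations can give. Ano1 exceeded Kcnq1 by 0.32 (0.22 to 0.41, adjusted p = 5e-05) and Kcne2 by 0.24 (0.13 to 0.36, adjusted p = 0.000614). Kcnq1 and Kcne2, subunits of 1 channel, differed by -0.072 (-0.144 to 0.00031, adjusted p = 0.0598), which did not pass. These values hold for the main probes on all 36 arrays. In a further test of Slc5a5 against Ano1 by each pair of their probes, chosen after the values had been seen and adjusted over 8 tests, the main Slc5a5 probe also exceeded the second Ano1 probe (0.73, 0.63 to 0.83, adjusted p = 4e-05). The second Slc5a5 probe differed from the main Ano1 probe by 0.025 (-0.092 to 0.142, adjusted p = 0.755) and from the second by -0.036 (-0.173 to 0.101, adjusted p = 0.755), neither of which passed. On the 18 upper arrays 0 of the 4 probe pairs passed, with 0.53 (0.037 to 1.02, adjusted p = 0.277) for the main probes and 0.19 to 0.50 for the others. Whether Slc5a5 had a steeper slope than Ano1 thus depended on the probe and on the arrays. The 4 pairs with Slc26a4 are not given, since its signal was at background.

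Since Iyd fell into 2 sets, correlations were computed within each set of 18 arrays, 14 in all, with permutation tests. The groups were pooled here, with no group term, unlike in the slopes. In the upper set, r between Iyd and Slc5a5 was 0.84 (rho 0.85, adjusted permutation p = 0.00014 for both) for the main probe and 0.82 (rho 0.85, adjusted p = 0.00014 for both) for the second. Without the 2 arrays farthest from the median of Iyd these were 0.82 and 0.78. For Ano1 r was 0.79 (rho 0.70, adjusted permutation p = 0.000327 and 0.00691) and 0.76 (rho 0.69, adjusted p = 0.000875 and 0.00721), and 0.67 and 0.63 without those 2 arrays. Slc5a5 and Ano1 thus varied with Iyd also among rats whose arrays all held C cell and follicular cell markers. Skeletal muscle markers varied within this set too, and their part in the relation was not tested. Kcnq1 (r = 0.02 and -0.10) and Kcne2 (r = 0.27, rho 0.27, adjusted permutation p = 0.56 and 0.377) showed no such relation past the limit.

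In the lower set, where Iyd was mostly at background, r for the main Slc5a5 probe was 0.76 (adjusted permutation p = 0.00202), but rho was 0.51 (adjusted p = 0.0791) and r without the 2 farthest arrays was 0.48, so that the relation rests on those arrays. Kcnq1 had rho -0.61 (adjusted permutation p = 0.0242) with r -0.40 (adjusted p = 0.238) and -0.38 without those arrays. For the main Ano1 probe r was -0.07, and -0.58 without those arrays. All 5 probes other than these main probes of Slc5a5 and Kcnq1 had r between -0.10 and 0.14.

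On the 18 arrays with C cell markers, the slopes on Iyd with the group term were 1.83 (1.13 to 2.54) for Slc5a5, 1.30 (0.78 to 1.82) for Ano1, 0.0045 (-0.99 to 1.0) for Kcnq1 and -0.076 (-0.61 to 0.46) for Kcne2. With 8 residual degrees of freedom, 0 of 30366 probes passed an adjusted p-value of 0.01 in either direction (0%), Slc5a5 at 0.0172 and Ano1 at 0.0181 included. At an unadjusted p-value under 0.05, 15.8% of all probes were above 0, and both probes of Slc5a5 and of Ano1 were among them, while 8.62% were below 0. The unadjusted limma p-value was 0.000174 and 0.00033 for the Slc5a5 probes and 0.00022 and 0.00356 for the Ano1 probes. All probes had a median slope of 0.11 on these arrays, with 5th and 95th percentiles of -1.13 and 0.88, against which the intervals of Kcnq1 and Kcne2 are wide.

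The other genes of the iodide pathway, a list of 14 that includes Iyd itself, mostly followed Iyd as well. Of the 13 others, 10 had a called slope above 0 (against 18.4% of all probes) and 0 below 0 (against 23.4%). Their median slope was 0.49, against -0.02 for all probes. Slc26a7, an anion exchanger of the follicular cell, had a slope of 0.95, beside the 1.10 of Slc5a5. Tg had a slope of 0.78 and was well above background on all 36 arrays, between -4.51 and 7.48. Atp1b1, a beta subunit of the sodium pump, had a slope of 0.16. Duox1, a hydrogen peroxide generating oxidase, had a slope of 0.15 that did not pass (adjusted p = 0.104), and neither did Cftr (-0.031, adjusted p = 0.668), well above background on 6 arrays, or Clcn5 (-0.054, adjusted p = 0.0329).

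**Figure D4:**
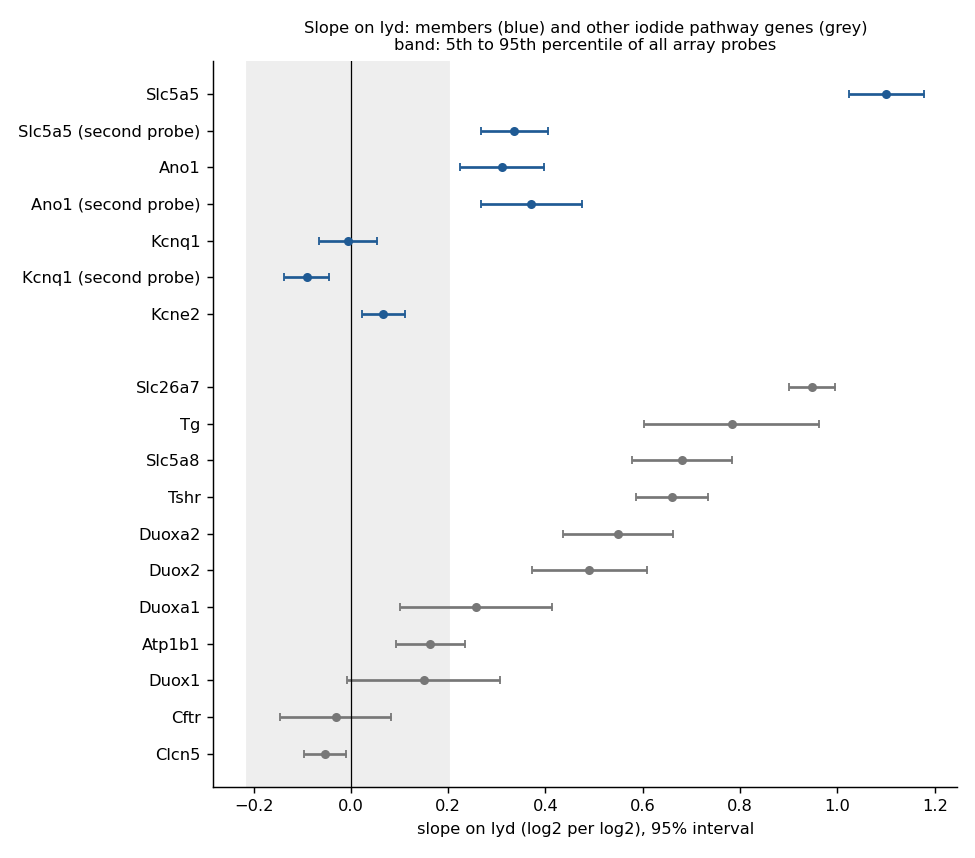
Slopes on Iyd (horizontal axis, log2 per log2 unit of Iyd, with 95% intervals) of the 7 measured probes in blue and of 11 other iodide pathway genes in grey, with the 5th to 95th percentile of all probes as a band (-0.21 to 0.20). Slc5a5 (1.10) lies near Slc26a7 (0.95), both Ano1 probes lie to the right of the band, and Kcnq1 and Kcne2 lie inside it.

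Relatives of the 5 genes were called about as often as all probes. Of 13 listed transporters and channel subunits 8 had a probe, and 1 was called above 0 (against 18.4% of all probes), Slc5a3, a sodium/myo-inositol cotransporter (0.27, interval 0.22 to 0.32). Called below 0 were 2 (against 23.4% of all probes), the anion exchanger Slc26a6 (-0.082) and Ano10 (-0.076). The median slope was -0.037. Kcne1 and Slc26a3 were well above background on 7 and 1 arrays.

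Markers of follicular cells were called above 0 in 11 of 11 cases (median slope 0.66), against 18.4% of all probes. Among them were the transcription factors Foxe1 at 0.29, Pax8 at 1.04 and Nkx2-1 at 0.99. C cell markers were called above 0 in 6 of 6 cases (median 0.59, Calca, the calcitonin gene, 1.46), and parathyroid markers in 3 of 3 (median 0.98, Pth, parathyroid hormone, 1.41). A slope on Iyd was therefore not particular to genes of the follicular cell. Markers of skeletal muscle (3 of 6), smooth muscle (3 of 5) and squamous epithelium (3 of 4) were called below 0, against 23.4% of all probes. Above 0, 0 of them were called, against 18.4% of all probes. Airway and adipose markers were called in 0 of 4 cases each. The part of these tissues in the slopes of Slc5a5 and Ano1 was not tested.

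The genes most alike in pattern were ranked by Pearson's r over the 36 arrays among 13476 probes, as a description of arrays that fall into 2 sets. For Slc5a5 these were Gng7, a G protein gamma subunit (0.986), Bex4 (0.986), Espn, an actin-bundling protein (0.984), Kcnj16, an inwardly rectifying potassium channel (0.984), and Rgs11, a regulator of G protein signalling (0.983). For Ano1 they were Slc1a1, a glutamate transporter (0.968), the adhesion receptor Adgrg1 (0.966), Crip2 (0.966), Sumf2 (0.963) and the RNA-binding protein Rbm47 (0.963). For Kcne2 they were Apip, an enzyme of methionine salvage (0.848), Timm10b, of mitochondrial protein import (0.843), Rnaset2 (0.832), Nsmce1 (0.826) and Pcbd1 (0.825). For Kcnq1 the highest values were lower, Vipr1, a receptor for vasoactive intestinal peptide (0.564), Wasf1 (0.517), Klhdc8a (0.513), Ypel4 (0.509) and Pam (0.505).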

How the data were processed

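Total RNA of single rat thyroids had been labelled with Cy3 and hybridized to 1-colour Agilent 8x60K arrays. The authors deposited the scanner's spot intensity, background-subtracted by Feature Extraction 10.7.3.1, and a matrix of normalized intensities. Of 62976 spots per array, 58717 belonged to the 30367 probes analysed. Outlier spots (331 to 1365 per array) were left out, no spot was saturated, the 75th percentile of the log2 intensities was subtracted, and spots of 1 probe were averaged. Probes were named by their accession through RefSeq (GRCr8), which gave 17998 probes 1 symbol. limma 3.58.1 in R 4.3.3 was fitted across all probes on all 36 arrays, with 1 mean per group, and adjusted by Benjamini-Hochberg within each comparison. Slopes on Iyd used the same fit with the Iyd level as a term. Correlations and differences of slopes were tested with 100000 permutations in Python 3.11.15. Groups came from the labels. Each array was 1 rat, so p-values measure the spread between rats, and the number of arrays limits precision. The fits were tested on simulated data with known changes. The group fit found 67.7% of the larger planted differences in 1 comparison, so that real group differences can be missed. These larger differences were several times the within-group SD of their probe, and the share found of those planted at 1 SD is not given. The Slc5a5 differences at 9 and 340 kBq (-4.74 and -3.93) were near its within-group SD of 4.68, so the 67.7% does not apply to them. The slope fit found 97% of the planted slopes. No 2 arrays were near-identical (highest r 0.991).

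The named genes are the 5 members, Iyd, members of gene lists with the steepest and flattest slopes, and for each measured member the 5 symbols closest in pattern. Members and lists were chosen with earlier results of these data known. Alternatives were quantile normalization, median centring, normexp (offset 50) on median spot intensities, which stood in for mean intensities, the authors' matrix, a filter on dim probes, slide or rat number as a block, limma's trend and robust options, only the 2 groups compared, an adjusted p-value of 0.05, no group term, another reference, and each rat left out. Fits without arrays between the sets and on the arrays with C cell markers were added later, with the values known. Values of 2 single genes of these lists are not reported here.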

Additional observations from a re-analysis of the deposited data

Results flagged for a closer look

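Of 36 groups of 4 rats (9 groups for the main probes of Slc5a5, Ano1, Kcnq1 and Kcne2), 1 held a rat far from the other 3. Rat 4 of the 340 kBq group had a Slc5a5 level of 2.10 on the log2 scale, while the other rats read -6.61, -5.96 and -5.42, so that its gap to the nearest rat was 0.864 of the range. The levels of this probe fell into 2 sets over the arrays, so that no chance rate is given. The same rat had the only high Iyd level of its group, 0.19, and the array with the highest share of probes above background, 88.4%. The cause was not tested.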

How the results depend on the processing

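The number of the 7 probes regulated was 0 in each of the 8 comparisons under every alternative run, and the F test passed for 0 of 7 probes under each. The slopes of both Slc5a5 and both Ano1 probes, and of the second Kcnq1 probe, kept their sign under all alternatives and their call under all but the fit on the 18 arrays with C cell markers. There they were 1.83 and 1.52 for Slc5a5, 1.30 and 1.33 for Ano1 and -0.15 for the second Kcnq1 probe, with 18 arrays fewer, while the main Kcnq1 slope changed sign to 0.0045 and that of Kcne2 to -0.076. The Kcne2 slope passed the limit with a filter on dim probes (0.067), with limma's trend and robust options (0.067), without the group term (0.068), with the rat number as a replicate block (0.074) and in 9 of 36 fits without 1 rat (0.059 to 0.080). Those rats were rat 1 at 9 kBq, rat 2 at 340 kBq, each rat at 1300 kBq, rats 2 and 3 at 4700 kBq and control rat 4. The main Kcnq1 slope changed sign in 6 of those fits (-0.017 to 0.013).

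No log2 difference from the controls was called, and those near 0 changed sign readily. Ano1 at 4700 kBq changed to 0.013 with quantile normalization, 0.015 with median centring, 0.013 with normexp and 0.024 in the authors' matrix, and Kcne2 at 260 kBq to -0.0033 with normexp. With the slide as a block, Slc5a5 changed to 1.27, 0.61 and 0.14 at 88, 260 and 760 kBq, Ano1 to 0.32, 0.57 and 0.089 at 88, 260 and 4700 kBq, and Kcne2 to 0.027 at 4700 kBq. The 88 kBq arrays lay on slides 3 and 4, and the controls on slides 1, 2 and 5. With this block, the differences at 88 kBq thus rest on arrays of other groups. On the arrays with C cell markers, Slc5a5 changed to 0.49, 0.77 and 0.45 at 88, 260 and 760 kBq, Ano1 to 0.18 and 0.16 at 260 and 4700 kBq, and Kcnq1 to 0.038 and 0.092 at 88 and 1300 kBq. Kcne2 changed to 0.034, 0.11, 0.18 and -0.20 at 88, 340, 760 and 1300 kBq there. Without 1 rat, sign changes occurred for Slc5a5 at 88 kBq (-3.52 to 0.59), 260 kBq (-3.53 to 0.32), 760 kBq (-3.38 to 1.29) and 4700 kBq (-1.97 to 2.38). They also occurred for Ano1 at 88 kBq (-1.23 to 0.41), 170 kBq (-1.30 to 0.17), 260 kBq (-0.87 to 0.42), 760 kBq (-0.31 to 0.91) and 4700 kBq (-0.79 to 0.93). For Kcnq1 this was so at 9 kBq (-0.26 to 0.23), 260 kBq (-0.36 to 0.20), 1300 kBq (-0.34 to 0.25) and 4700 kBq (-0.066 to 0.28), and for Kcne2 at 260 kBq (-0.16 to 0.22), 760 kBq (-0.45 to 0.0028) and 4700 kBq (-0.22 to 0.14). The cause was not tested.

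Rats of different groups shared only a number. Of 144 same-numbered pairs, 39.6% had deviations from the group means that correlated over 0.1 (median -0.027, against -0.030 for other pairs). With the replicate block the slopes were 1.09 for Slc5a5, 0.30 for Ano1, -0.017 for Kcnq1 and 0.074 for Kcne2, and 0 of 7 probes were regulated. Signal over background limits the low end: Iyd was not well above background on 15 of 36 arrays, the main Slc5a5 probe on 10, the second Ano1 probe on 4 and the Slc26a4 probe on all 36.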
